A study of Homo sapiens with 62 samples.

Results

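The genes described here are 10 genes of transcription factors, and of a coactivator, that act in the B lymphocyte lineage: PAX5, EBF1, IKZF1, IKZF3, SPI1, SPIB, POU2AF1, POU2F2, TCF3 and IRF8. They were found by their symbols among the 55040 rows of each deposited expression file. Each symbol had exactly 1 row, and all 10 rows had the status OK in all 20 libraries. Of the 10, 9 reached the mean of 1 FPKM (fragments mapped, scaled to the length of the transcript in kilobases and to the size of the library) that was required for testing, among 10506 rows that did. SPI1 did not.

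The libraries came from GM12878, a human B-lymphoblastoid cell line immortalised with Epstein-Barr virus. Pools of 10 cells were divided into 10 parts, and each part was amplified with the SMARTer full-length cDNA kit and sequenced as if it were a single cell, so that technical variation could be assessed. Values were available for 20 of the 62 samples, as 10 numbered splits, whose titles count from 1 to 10, and 10 unnumbered splits, whose titles give a library number (232, 233 and 246 to 253). The titles of 9 of the 10 unnumbered splits, all but 247, mark the record as superseded by a later deposit, and no numbered split is marked so. All 20 were from the same line, so no difference between donors enters. Whether all splits of a set share a pool is not spelled out in the labels, and the p-values below measure the spread between splits, which may be technical. Splits 5 to 8 of the numbered set have laboratory experiment numbers apart from the other 16 libraries, and whether they were a separate batch is not given.

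B lymphocytes are made from blood progenitors by a chain of factors that switch each other on. TCF3 (E2A) and EBF1 open the B cell programme, and PAX5 then commits the cell to it and shuts off other fates. SPI1 (PU.1) and its close relative SPIB are ETS-family factors that often bind DNA together with the interferon regulatory factor IRF8. IKZF1 (Ikaros) and IKZF3 (Aiolos) are zinc finger factors that shape chromatin in lymphocytes. POU2F2 (Oct-2) binds the octamer motif of immunoglobulin and other B cell promoters, and POU2AF1 (OCA-B) is its coactivator, which does not bind the motif by itself.

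Promoters of 2 members are shown because the results below turn on these genes: SPIB had the largest difference between the sets, and IKZF1 was read in the most splits. Each line is the 250 bases before the RefSeq start of the gene, 5′ to 3′ on the strand of the gene, in build GRCh38.p14, at chr19:50418688-50418937 (plus strand) for SPIB and chr7:50304466-50304715 (plus strand) for IKZF1. Capitals mark any match, on either strand, to the letters searched.
SPIB: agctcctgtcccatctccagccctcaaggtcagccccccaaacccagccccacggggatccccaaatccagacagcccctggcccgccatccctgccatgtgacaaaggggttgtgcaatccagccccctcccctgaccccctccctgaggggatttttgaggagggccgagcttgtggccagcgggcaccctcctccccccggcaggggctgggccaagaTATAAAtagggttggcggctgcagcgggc
IKZF1: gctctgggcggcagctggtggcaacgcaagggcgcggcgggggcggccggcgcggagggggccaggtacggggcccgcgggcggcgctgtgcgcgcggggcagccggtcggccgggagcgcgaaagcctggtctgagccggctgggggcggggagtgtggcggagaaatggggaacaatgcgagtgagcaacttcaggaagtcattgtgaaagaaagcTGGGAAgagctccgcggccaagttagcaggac

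Of the members, 7 had an entry among the RefSeq promoters and were searched on both strands (SPI1, POU2AF1 and IKZF3 had none). The capitals in SPIB are a TATA box (TATAAA), 29 to 24 bases before the start, a motif chosen after the sequence was seen. It was held by SPIB and PAX5 and by 10.7% of 35116 promoters of this length. The capitals in IKZF1 are the core that Ikaros proteins bind (TGGGAA), 32 to 27 bases before the start. The core was held by 3 of the 7, IKZF1, EBF1 and IRF8, and by 20.8% of all promoters. The PU box bound by SPI1 and SPIB (GAGGAA) was held by PAX5 and POU2F2, and by 23.6% of all promoters. The octamer (ATTTGCAT, 1.63% of promoters), the EBF1 palindrome (TCCC and GGGA with any 2 bases between, 1.06%), an E box of TCF3 (CAGGTG, 17.5%) and an interferon response core of IRF8 (GAAA and GAAA with any 2 bases between, 3.02%) were in none of the 7 windows. A match describes letters only, and the libraries hold no measurement of binding.

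Sequencing depth, estimated from the confidence bounds of 10 mitochondrial genes, was 11.8 to 20.6 M fragments (M, mega) for numbered splits, with a median of 15.7 M. For unnumbered splits it was 0.128 to 38.7 M fragments with a median of 33.5 M, which is above the deepest numbered split. Among the unnumbered splits 247 was the lowest and 252, at 7.79 M, the next. Over all rows, 3771 to 7671 reached 1 FPKM per numbered split and 2942 to 4792 per unnumbered split, with the fewest in splits 9 and 253. The B cell markers CD79A, CD79B, MS4A1, CD22 and CD74 all reached 1 FPKM somewhere, with a summed level of 3883 to 7756 FPKM in the numbered and 1554 to 3400 FPKM in the unnumbered splits. Among T cell markers CD3D was listed at 0 in all libraries, but TCF7, CD2, CD3E and BCL11B reached 1 FPKM, and the summed level of the 7 T cell markers was 2.27 to 120 FPKM in the numbered and 0.180 to 103 FPKM in the unnumbered splits. The myeloid genes CD14, CEBPA and CEBPE, the NK gene GNLY and the erythroid genes HBB, HBA1, GATA1 and KLF1 were listed at 0 throughout. Other genes of these lists were not: CSF1R reached 1 FPKM in 10 numbered and 8 unnumbered splits (highest 53.8 FPKM), ITGAM in 1 numbered split (38.6 FPKM), NKG7 in 5 numbered and 1 unnumbered splits (highest 243 FPKM) and EOMES in 2 unnumbered splits (highest 33.7 FPKM). In the numbered and then the unnumbered splits, the summed level of the 7 myeloid markers was 1.66 to 53.8 and 0.920 to 1.65 FPKM, and that of the 4 NK markers 0 to 92.2 and 0 to 244 FPKM. The 6 erythroid markers reached no more than 0.206 and 0.00168 FPKM, and the 4 epithelial or fibroblast markers 1.26 and 2.61 FPKM. The part of these levels in the results below was not tested.

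Detection of the lineage factors changed from split to split. A gene was counted as read at 1 FPKM or more. Of the 100 values per set (10 genes in 10 splits), 47 numbered and 39 unnumbered values reached that level, while 15 and 32 were listed at exactly 0. Split 247, the library of lowest depth, gave 7 of the 32. Over all kept rows, 53571 numbered and 43279 unnumbered values reached 1 FPKM, so the lower count in the unnumbered set was not particular to the members. Values of exactly 0 were not counted over all rows, so the larger number of zeros cannot be called particular to the members. The number of the 10 genes read per split had a median of 4.5 for numbered (3 to 7) and 4 for unnumbered splits (2 to 5). Split 7, which also had the most rows over all genes, held 7 of them, and split 252 held 2. No split held all 10.

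**Figure D1:**
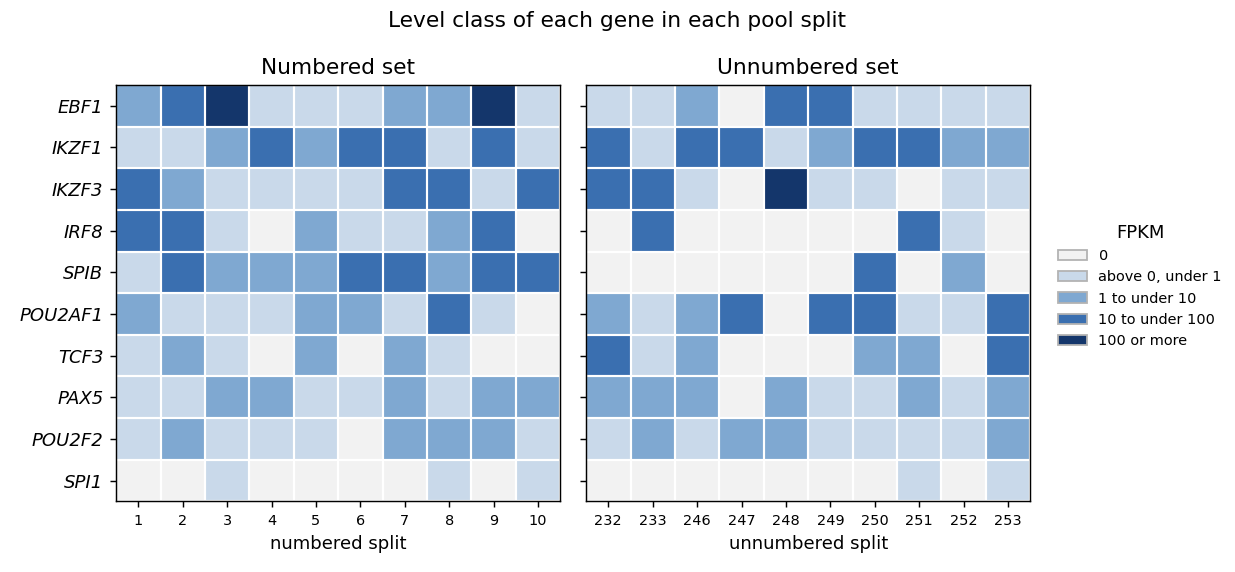
Level class of each of the 10 genes (rows) in each of the 10 numbered (left) and 10 unnumbered (right) splits, from listed at 0 (palest) to 100 FPKM or more (darkest). SPIB reached 1 FPKM in 9 numbered and 2 unnumbered splits, while SPI1 stayed below it in all 20.

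IKZF1 was the factor read most often, in 14 of 20 splits, followed by PAX5 and SPIB in 11 each, POU2AF1 in 10 and EBF1 in 9. IKZF3, POU2F2 and TCF3 were read in 8 each, IRF8 in 7 and SPI1 in none. EBF1 had the highest mean over the 20 libraries, 21.3 FPKM, yet was read in fewer splits than PAX5, whose mean was 2.22 FPKM. Of the 200 values 47 were listed at 0 and 67 lay between 0 and 1 FPKM. Of these 67, 22 correspond to less than 1 fragment on a transcript of 1 kilobase at the estimated depth, and for 7 of those 22 the authors' lower confidence bound was still above 0. The threshold of 1 FPKM is a level and not a fragment count: in split 247, 1 FPKM corresponds to 0.128 fragments per kilobase, so a gene counted as read there can rest on less than 1 fragment.

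**Figure D2:**
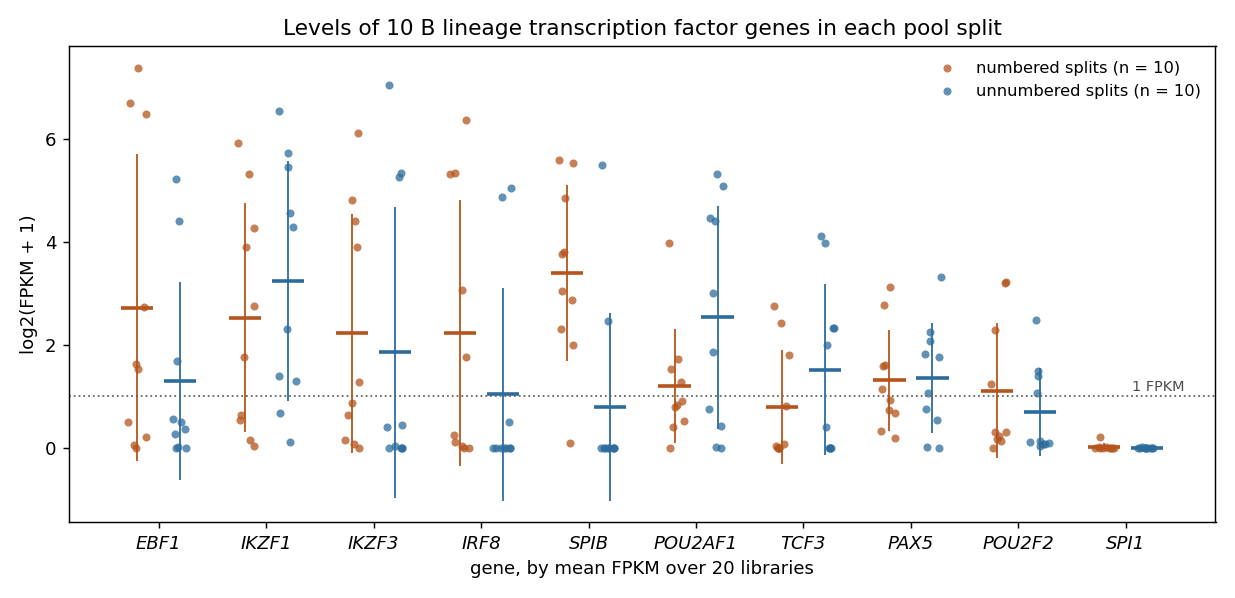
Level of each gene as log2(FPKM + 1) in every split, numbered left and unnumbered right of each pair, with the mean (bar) and SD (line) over the 10 splits of the set. The dotted line marks 1 FPKM, and most genes have splits both at the floor and several log2 units above it.

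Among the factors that open the programme, EBF1 was high in few splits and near the floor in the rest. Its numbered splits ran from 0.00129 to 166 FPKM with a median of 2.0, and its unnumbered splits from 0 to 36.2 FPKM with a median of 0.349 (chromosome 5, 158122928 to 158526769 in the coordinates of the files). Numbered splits 2, 3 and 9 held 88.6, 103 and 166 FPKM, and unnumbered splits 248 and 249 held 36.2 and 20.2 FPKM. Every other split was below 6 FPKM. Numbered splits 2, 3 and 9 thus lay above every unnumbered split, and the other 7 numbered splits lay within the unnumbered range. Split 9 alone gave 45.1% of the EBF1 signal summed over the numbered set, and split 248 gave 60.3% of that over the unnumbered set. The mean was 6.12 times as high in the numbered as in the unnumbered set, but the log2 difference of 1.42 (SE 1.09) did not pass (limma adjusted p = 0.545). It was 0.90 without split 9.

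TCF3 was low in both sets, and 4 splits of each had it at 0. Numbered splits ranged from 0 to 5.76 FPKM with a median of 0.0306, and unnumbered splits from 0 to 16.2 FPKM with a median of 1.64 (chromosome 19, 1609293 to 1652326). It was read in 3 numbered and 5 unnumbered splits, among which 232 and 253 held 16.2 and 14.7 FPKM. The log2 difference was -0.72 (SE 0.69, limma adjusted p = 0.605), and -0.44 without split 232.

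PAX5 was low, and its lower confidence bound was above 0 in 19 of 20 libraries. Such a bound does not show presence by itself: in split 252 it was above 0 at 0.00640 FPKM and 0.0498 fragments per kilobase. Its range was 0.143 to 7.68 FPKM in the numbered splits with a median of 1.05, and 0 to 8.93 FPKM in the unnumbered splits with a median of 1.75 (chromosome 9, 36833272 to 37034103). The only split listed at 0 was 247, the library of lowest depth. PAX5 was read in 5 numbered and 6 unnumbered splits and never reached 10 FPKM, and the 2 sets lay over each other. The log2 difference was -0.05 (95% confidence interval -1.28 to 1.18, limma adjusted p = 0.970), an interval that leaves room for a difference of more than 2 times on the log2(FPKM + 1) scale in either direction.

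Of the ETS genes, SPIB was detected and SPI1 was not. SPIB was read in 9 of 10 numbered splits, from 0.0675 to 47.3 FPKM with a median of 9.87, and in 2 of 10 unnumbered splits, with 8 splits listed at 0 and 4.51 and 43.9 FPKM in splits 252 and 250 (chromosome 19, 50922195 to 50932246). All but split 1 of the numbered set were thus above the median of the unnumbered set by 1 FPKM or more, while split 250 of the unnumbered set was as high as the highest numbered splits, 6 and 7 (47.3 and 45.4 FPKM).

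The SPIB difference was the largest of the 9 and lay at the edge of the threshold. Its log2 difference was 2.59 (SE 0.85, 95% confidence interval 0.83 to 4.35) with limma adjusted p = 0.0830, where the median difference of all tested rows was 0.35. Of all tested rows 5.31% passed, 3.93% as higher and 1.38% as lower in the numbered splits, and of the 9 members none passed. At an unadjusted p under 0.05 limma called 1 member, SPIB, and 16.3% of all rows. The exact rank-sum test, which called 9.07% of all rows and 6.72% as higher in the numbered splits, called SPIB and no other member (adjusted p = 0.0217). SPIB also passed limma with a pseudocount of 0.1 (log2 difference 4.88, adjusted p = 0.0282), where 4.27% of all rows were called higher. It passed limma too without unnumbered split 250 (adjusted p = 0.0100) and without numbered split 1 (adjusted p = 0.0334). These are its highest unnumbered and its lowest numbered split, so leaving out either had to widen the difference. Without the 4 splits of the separate experiment numbers the difference was 2.27 (limma adjusted p = 0.261), and with them as a covariate limma adjusted p was 0.293. With libraries rescaled by size factors limma adjusted p was 0.121. Of the 29 other ways of testing the level, 4 called SPIB. Over the 29, adjusted p ranged from 0.0100 to 0.293, and SPIB was higher in the numbered set in each.

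SPI1 stood at the floor in every library. The highest value was 0.161 FPKM among numbered splits (split 8) and 0.0139 FPKM among unnumbered splits (split 253), and 7 numbered and 8 unnumbered values were exactly 0 (chromosome 11, 47376411 to 47400127). Its lower confidence bound was above 0 in 1 of 20 libraries, split 253. At this depth SPI1 was not detectable at 1 FPKM, which does not show that the gene was silent.

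IRF8, which pairs with these factors on DNA, was read in 5 numbered and 2 unnumbered splits. The numbered splits ranged from 0 to 81.2 FPKM with a median of 1.30, and splits 1, 2 and 9 held 39.5, 38.8 and 81.2 FPKM. In the unnumbered set 7 splits were listed at 0, and splits 233 and 251 held 28.1 and 31.7 FPKM (chromosome 16, 85932409 to 85956197). The sets differed by 1.18 on the log2 scale (SE 1.02, limma adjusted p = 0.599), and by 0.73 without split 9. The exact rank-sum test gave adjusted p = 0.266.

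Of the Ikaros genes, IKZF1 was never listed at 0, and its lower confidence bound was above 0 in 18 of 20 libraries. Numbered splits held 0.0187 to 59.2 FPKM with a median of 4.08, and unnumbered splits 0.0861 to 92.0 FPKM with a median of 11.2 (chromosome 7, 50343720 to 50472799). It was read in 6 numbered and 8 unnumbered splits. In split 247 its 18.5 FPKM had confidence bounds of 0 and 73.6 FPKM. The sets overlapped, and differed by -0.71 on the log2 scale (SE 1.03, limma adjusted p = 0.726). The difference was -1.08 without split 9 and -0.34 without split 250.

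IKZF3 held the highest value of any member in the unnumbered set. Numbered splits held 0.000804 to 67.9 FPKM with a median of 1.12, and unnumbered splits 0 to 131 FPKM with a median of 0.175 (chromosome 17, 37921198 to 38020441). Split 10 of the numbered set (67.9 FPKM) and splits 248, 233 and 232 of the unnumbered set (131, 39.1 and 37.3 FPKM) stood above the rest. The log2 difference was 0.37 (SE 1.11, limma adjusted p = 0.877) and -0.06 without split 10. Within the IKZF3 locus lies a row of 156 bases, AC079199.2 (37995622 to 37995777), that was at 1039 FPKM in split 232 and below 1 FPKM in the other libraries. The kit and counting are not stated to keep the strand, so reads of overlapping rows cannot be told apart.

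The octamer factor POU2F2 was below 10 FPKM in every library. Its numbered splits held 0 to 8.26 FPKM with a median of 0.237, and its unnumbered splits 0.0263 to 4.54 FPKM with a median of 0.0896 (chromosome 19, 42592650 to 42700737). It was read in 4 splits of each set, of which split 247, at 1.82 FPKM, had bounds of 0 and 8.07 FPKM and 0.232 fragments per kilobase. The log2 difference was 0.41 (SE 0.57, limma adjusted p = 0.710), and ran from 0.18 without split 2 to 0.61 without split 253. The rows CTC-378H22.1 and CTC-378H22.2 overlap its locus and were at 8.25 and 33.2 FPKM in numbered split 7, where POU2F2 was at 3.85 FPKM, and below 1 FPKM elsewhere.

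POU2AF1, the coactivator of POU2F2, was the member with the lowest log2 difference. Numbered splits ranged from 0 to 14.7 FPKM with a median of 0.824, and unnumbered splits from 0 to 38.5 FPKM with a median of 4.82 (chromosome 11, 111222977 to 111326355). In the numbered set only split 8 passed 10 FPKM, and in the unnumbered set splits 247, 249, 250 and 253 did, at 33, 20.9, 20.1 and 38.5 FPKM. The value of split 247 had bounds of 14.7 and 51.3 FPKM. The log2 difference was -1.33 (SE 0.83, limma adjusted p = 0.455), or -0.59 without splits 9, 247 and 253, a choice made after seeing the data.

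**Figure D3:**
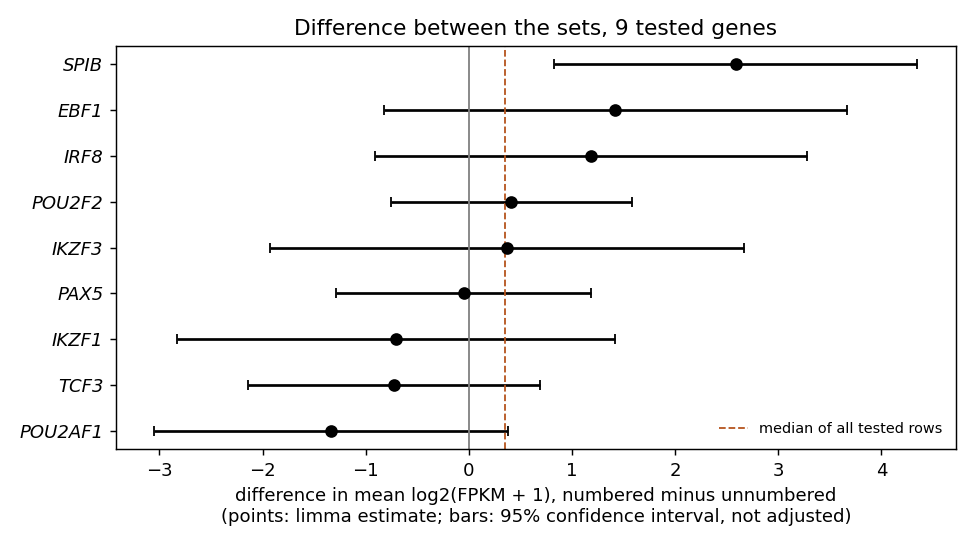
Difference in mean log2(FPKM + 1), numbered minus unnumbered, for the 9 tested genes, with the limma estimate (point) and its unadjusted 95% confidence interval (bar). The interval of SPIB, 0.83 to 4.35, is the only one that leaves out 0, and the dashed line marks the median of all tested rows, 0.35.

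Read as a group, the factors were split between the directions. Of the 9 tested, 5 had a positive and 4 a negative log2 difference, and their median was 0.37, near the 0.35 of all tested rows. With libraries rescaled by size factors the medians were 0.20 for the members and 0.23 for all rows, and the 413 higher and 145 lower calls over all rows became 309 and 194. On detection alone, Fisher's exact test called none of the 9 after adjustment over all rows and 1 before it, SPIB (unadjusted p = 0.00548, adjusted p = 0.405). It called 0.0666% of all rows after adjustment and 4.34% before, and with reading set at 10 FPKM it called 0.0476% and again no member. A lower level in every cell of a pool cannot be told apart from fewer cells with the transcript, or from a technical difference between the sets. The sets also differed in depth, in the rows read and in the records marked as superseded, and the part of these was not tested.

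Within the numbered set, splits 5 to 8 and the other 6 splits were compared for each member with a two-sided exact permutation test on log2(FPKM + 1). None passed even before adjustment. The test was run for the members only, so the share of all rows that would pass is not known. The smallest p was 0.114, for POU2AF1, at a mean of 4.69 FPKM in splits 5 to 8 and 0.785 FPKM in the other 6. EBF1 differed most in level, at a mean of 1.95 FPKM in splits 5 to 8 and 59.9 FPKM in the other 6 (exact permutation p = 0.200). SPIB was read in 4 of 4 and 5 of 6 of these splits, at means of 24.9 and 11.1 FPKM (p = 0.505).

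The order of the factors by level was tested between neighbours only. By mean FPKM the numbered set ran EBF1, IRF8, SPIB, IKZF1, IKZF3, POU2AF1, POU2F2, PAX5, TCF3 and SPI1, and the unnumbered set ran IKZF1, IKZF3, POU2AF1, IRF8, EBF1, SPIB, TCF3, PAX5, POU2F2 and SPI1. Of the 18 pairs of neighbours, 1 differed beyond its spread: in the unnumbered set POU2F2 was above SPI1 in 10 of 10 splits, by 0.69 on the log2 scale (exact sign-flip permutation test, p = 0.00195, adjusted over the 18 pairs p = 0.0352). SPI1 was listed at 0 in 8 of those splits and reached no more than 0.0139 FPKM, and any gene above it in all 10 gives this p. POU2F2 itself went down to 0.0263 FPKM there, so the pair describes SPI1 at the floor and does not order expressed factors. The smallest adjusted p of the other 17 pairs was 0.647.

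The spread between splits was wide for all members. The coefficient of variation (CV, SD over mean) cannot exceed 3.16 with 10 libraries, a value reached when only 1 library holds signal. In the numbered set it ran from 1.05 for SPIB and 1.2 for PAX5 up to 1.88 for POU2AF1, leaving SPI1 aside. Among the 9 members with a mean of 1 FPKM or more, 8 lay below the median CV of all rows in their level class (1 to 3, 3 to 10, 10 to 30 or 30 to 100 FPKM). The exception was EBF1, at 1.63 against a class median of 1.17. Its mean of 36.7 FPKM lay near the lower edge of the 30 to 100 FPKM class, and the class below had a median CV of 1.74. EBF1 is thus not shown to be unusually variable for its level.

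In the unnumbered set, again leaving SPI1 aside, the CV ran from 1.17 for PAX5, 1.2 for POU2AF1 and 1.29 for IKZF1 up to 2.85 for SPIB, whose split 250 gave 90.7% of the signal of the set. Of the 8 members with a mean of 1 FPKM or more, 7 lay below their class median, and SPIB lay above its 2.50. PAX5 was at 1.17 against a class median of 2.83, and was read in 6 splits where the median row of its class was read in 2. These counts are descriptions with no test.

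**Figure D4:**
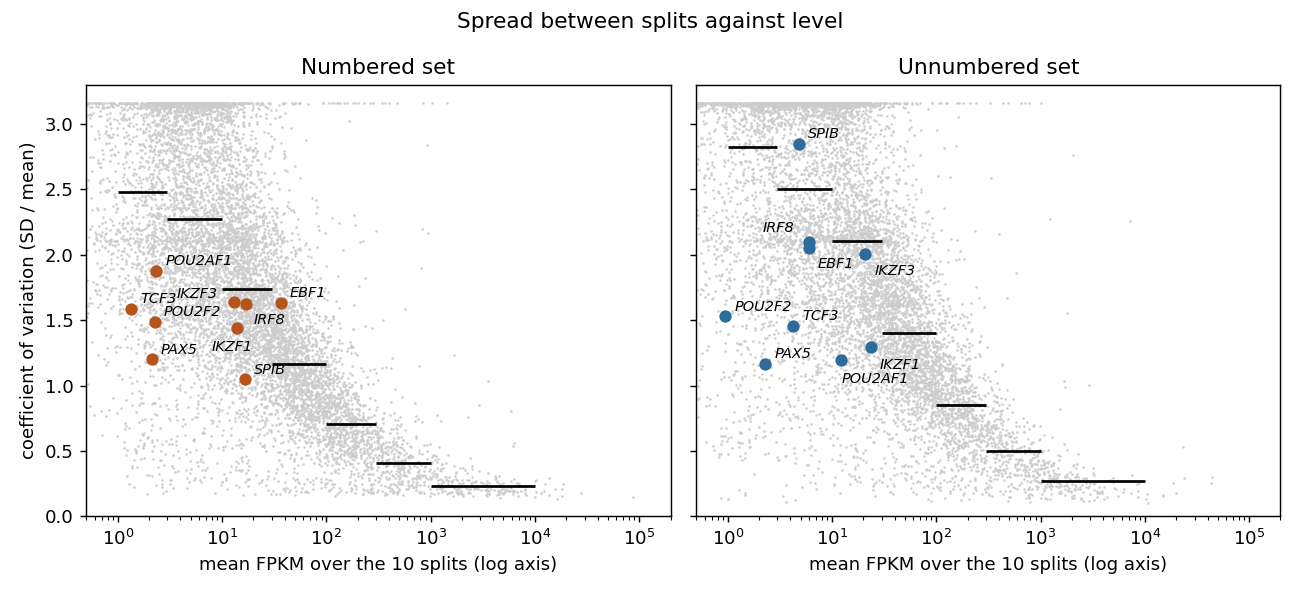
Coefficient of variation over the 10 splits of a set against mean FPKM (log axis), numbered left and unnumbered right, for all tested rows (grey) and the 9 members with a mean of 0.5 FPKM or more (colour). Black bars mark the median of all kept rows in each level class, and most members lie below their bar, except EBF1 in the numbered and SPIB in the unnumbered set.

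Whether a gene scattered more in 1 set than in the other was tested on the absolute deviation of log2(FPKM + 1) from the set mean. POU2AF1 alone of the 9 passed, with a mean deviation of 0.75 for numbered and 1.92 for unnumbered splits (difference -1.18, SE 0.40, limma adjusted p = 0.0427). This test called 17.5% of all rows, 6.35% in the direction of POU2AF1. The call was lost without split 247 (difference -1.07, adjusted p = 0.0703), and with deviations from the set median (difference -1.23, adjusted p = 0.356), where 147 rows in place of 1843 passed. For EBF1 the difference was 1.0 (adjusted p = 0.203), and it passed only without splits 5 to 8 (1.57, adjusted p = 0.0318).

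Some factors had their highest values in the same split, and the number of splits that read both factors differed between pairs. IKZF1, read in 14 splits, and IKZF3, read in 8, were both read in 2, and at least 1 of them in all 20. In split 247 this rests on IKZF1, whose lower confidence bound there was 0. PAX5, read in 11 splits, and IKZF1 were both read in 8, of 17 with either. Leaving SPI1 aside, these pairs had the lowest count of joint splits and one of the highest. The overlap was not tested against the single counts or against pairs of other rows, so no pair can be called linked or exclusive. Numbered split 9 held the highest value of its set for PAX5, EBF1, IKZF1 and IRF8, although it had the fewest rows over all genes, and unnumbered split 253, likewise lowest in rows, held the highest values of POU2AF1 and POU2F2. The part of the low row counts in these values was not tested. How many of all rows had their highest value in these splits was not counted, so the peaks cannot be called particular to the factors. Each set had other splits that led for 1 or 2 genes. For the 3 members with the highest mean, the rows with the most similar profile over the 20 libraries, centred within each set and among 5804 rows, were RAPGEF6 and TUBE1 for EBF1 (Pearson r of 0.83 and 0.79 on the log2 scale), SLC41A2 and USP7 for IKZF1 (0.67 and 0.66), and MYO6 and RPL23AP7 for IKZF3 (0.89 and 0.81). These are the highest of 5804 values per member over 20 libraries that share the same splits, and RAPGEF6 was read in 6 and MYO6 in 10 of the 20.

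Genes listed as B cell targets of these factors were read in a median of 8 numbered and 4 unnumbered splits. The members had medians of 5 and 3.5, and all tested rows 4 and 3. The medians of the targets and members include genes below the mean required for testing, while that of all tested rows does not. Of 17 listed target genes 14 were tested, and 4 were higher and none lower in the numbered splits, with a median log2 difference of 1.26. Of all tested rows 3.93% were higher, with a median difference of 0.35. The 4 included the invariant chain gene CD74, at 5222 ± 1077 FPKM in the numbered and 2328 ± 653 FPKM in the unnumbered splits (SD, n = 10 each, limma adjusted p = 2.16e-05), and the CD20 gene MS4A1, at 716 ± 209 and 258 ± 155 FPKM (adjusted p = 0.00401). CD79A, which encodes a signalling chain of the antigen receptor, differed by 4.69 on the log2 scale (adjusted p = 0.00274). The list was chosen with such differences known, so its count is no independent evidence.

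Of 15 further B lineage factors and partners, 10 were tested, and 1 was lower in the numbered splits, as were 1.38% of all tested rows. It was IRF4, a partner of SPI1 and SPIB that drives plasma cell formation, at 70.4 ± 55.7 FPKM in the numbered and 227 ± 100 FPKM in the unnumbered splits (log2 difference -1.94, limma adjusted p = 0.0193), and it was read in all 20. MEF2C, a factor of B cell proliferation, stood at 101 ± 123 and 127 ± 60.7 FPKM (adjusted p = 0.460), and SOX4, which supports early B cell survival, at 49.2 ± 58.0 and 109 ± 36.2 FPKM (adjusted p = 0.159).

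Among 16 relatives of the members 7 were tested, and IRF1, an interferon-induced factor, was higher in the numbered splits, as were 3.93% of all tested rows. It was read in 7 numbered splits and 1 unnumbered split (log2 difference 3.84, SE 0.97, adjusted p = 0.0153). IRF2 and the Ikaros relative IKZF2 did not pass (adjusted p = 0.863 and 0.452), and EBF2, EBF3, EBF4, SPIC, PAX2, PAX6 and PAX8 were among the 9 below the mean required. ID2 and ID3, which block E proteins such as TCF3, were at 58.8 ± 69.1 and 56.8 ± 54.4 FPKM in the numbered and 72.0 ± 89.3 and 87.2 ± 111 FPKM in the unnumbered splits, and neither passed (adjusted p = 0.956 and 0.843).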

How the data were processed

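The authors deposited FPKM values and their confidence bounds for each row. The submitters' processing notes name Cufflinks 2.0.2 and TopHat 1.4.1. Coordinates are those of the files, whose build the sources used here do not give. After leaving out 5797 rows marked LOWDATA throughout and 128 marked FAIL in any library, 49115 were kept. Rows with a mean of 1 FPKM or more over the 20 libraries (10506) were tested, all together, and called at a Benjamini-Hochberg adjusted p under 0.05.

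Levels were compared with limma 3.58.1 (trended variance, R 4.3.3) on log2(FPKM + 1), which understates changes of low genes. Detection was compared with Fisher's exact test, spread with limma on absolute deviations, and neighbours in level with sign-flip tests (scipy 1.17.1 and pandas 2.3.3 under Python 3.11.15, figures with matplotlib 3.10.9). The scripts were tested on simulated data. Depth was estimated by taking the bounds as the value plus or minus 2 SD of a Poisson count, and covers counting error only. Alternatives were pseudocount, filter, scaling, test, detection threshold and left-out libraries. Named genes were the 10 members, from each list the 2 most abundant and up to 2 with the smallest p, and 2 similar rows for each of 3 members. The members and lists were chosen with earlier results of these data known. The other 42 samples were not analysed here, and a gene of the marker and target lists is not reported here. Replicates are separate libraries, and no pair of numbers links the sets.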

Additional observations from a re-analysis of the deposited data

Results flagged for a closer look

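In 4 of 22 groups of 10 values examined, a single split lay far from the others on the log2(FPKM + 1) scale. The rule is set to flag about 1 in 20 by chance, but that rate cannot be applied where most values are exactly 0. The unnumbered SPIB group had 8 values at 0, and the SPI1 groups 7 and 8, so the count of flags is only a description. SPIB was at 43.9 FPKM in unnumbered split 250, against 4.51 FPKM or less in the other 9. POU2AF1 was at 14.7 FPKM in numbered split 8, against 2.32 FPKM or less in the other 9. SPI1 also stood apart, at 0.161 FPKM in split 8 among numbered and at 0.0139 FPKM in split 253 among unnumbered splits, with most other splits of each set at exactly 0.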

How the results depend on the processing

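No paired analysis was possible because the numbered and unnumbered splits share no replicate number.

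The count of rows that differed in level, 558, stayed within 1.5 times under each alternative except the exact rank-sum test, which called 953, and was 524 to 614 when any 1 split was left out. The split into directions moved from 413 higher and 145 lower to 309 and 194 with size factors and to 345 and 217 on a TPM scale. No member passed in the main test, while SPIB made it 1 with a pseudocount of 0.1 and in the rank-sum test, and 0 to 1 when a split was left out. PAX5 changed sign in level, to 0.16 with a pseudocount of 0.1 and 0.26 without splits 5 to 8 or with them as a covariate, and ran from -0.25 to 0.17 when a split was left out. IKZF3 ran from -0.06 (-0.063, without numbered split 10) to 0.95. The spread test fell to 147 rows with deviations from the set median. Its 1 member call became 0 there, with a pseudocount of 0.1 and without split 247, and 2 without splits 5 to 8. Spread differences with a changed sign were 0.0045 for PAX5 and -0.21 for SPIB without splits 5 to 8, 0.14 for IKZF1 and -0.63 for SPIB with a pseudocount of 0.1, 0.029 for IKZF3 about the set median, and -0.052 for SPIB without split 247. Detection called 7 rows, against 3 by the lower bound, 0 without splits 5 to 8, 27 without split 247 and 12 without splits 9, 247 and 253 (chosen after seeing the data), with no member in any. In detection, PAX5 changed sign to 20 percentage points at 0.1 FPKM, 10.0 by the lower bound and 6.67 without splits 5 to 8, and POU2AF1 to 10.0 at 0.1 FPKM. Causes of these changes were not tested. Over 351 distinct single-gene values, 311 kept their direction and call, 10 involved a difference of exactly 0, 22 changed sign, 5 gained and 3 lost a call. Depth limits split 247 most.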
